A study of Caenorhabditis elegans with 4 samples.

Results

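The 7 genes described here are dod-6, dod-17, dod-19, dod-21, dod-22, dod-23 and dod-24 of Caenorhabditis elegans, taken by their symbols from a table of 20179 features. The name dod stands for genes lying downstream of the transcription factor DAF-16. They were chosen by name with their footprint counts in mutant and wild-type worms already known, so their values in that comparison are a description. No p-value is given for them, and where a member is said to be called, that is only how the fit of all genes sorted it. Ribosome-protected fragments (footprints) had been sequenced from whole young adults fed OP50 bacteria, with 2 N2 (wild-type) libraries and 2 from a double mutant that carries rrr12 in cey-1 and ok858 in cey-4. The cey genes encode Y-box proteins, which bind messenger RNA, and the comparison asks which messages held a larger or smaller share of footprints when these 2 genes were altered. No library of total RNA was analysed here, so the amount of a message and its ribosome occupancy cannot be told apart. Whether the 2 libraries of a group came from separate cultures is not given, so p-values measure only the spread between these libraries, which may be technical.

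DAF-16 is the FOXO factor at the end of the insulin-like signalling pathway. The receptor DAF-2 acts through the kinases AGE-1, PDK-1 and AKT-1 to keep DAF-16 out of the nucleus. When DAF-2 signalling falls, DAF-16 enters the nucleus. Genes of the dod series are known as 2 classes: dod-3 and dod-6 belong to those activated by DAF-16, and dod-17 to dod-24 to those that are repressed when DAF-16 is active. Several of the second class, dod-17, dod-21, dod-22 and dod-24 among them, encode proteins with a CUB-like domain, a family many of whose members respond to infection in the intestine.

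Library totals ranged from 22334239 to 32960588 counts, and levels are given below as CPM, the count relative to the library total scaled to 1e6. Footprints on the mutated genes identified the libraries: cey-4 had 264 ± 2.06 CPM in N2 and 1.70 ± 0.25 in the mutant, and cey-1 had 71.6 ± 2.57 and 3.99 ± 0.19 (SD, n = 2 libraries per group). Fold changes are mutant relative to N2 on the log2 scale, with their standard error (SE), from edgeR's quasi-likelihood fit of all genes. A gene was called at a Benjamini-Hochberg adjusted p under 0.05 over the 13086 genes that passed the filter on low counts. Of these, 34.0% were called, 17.4% higher and 16.6% lower, that is 2278 and 2177 genes. The split depended on scaling, with 2730 higher and 1598 lower under upper-quartile factors and 801 and 5615 when scaled on tissue markers of the soma. The somatic markers include those of muscle, whose median log2 fold change in the main fit was 0.73, so this reference set itself differed between the groups.

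The dod genes did not move together. dod-23 and dod-24 had about 2.48 and 2.04 times the N2 level in the mutant, dod-22 had 1.45 times on few counts, dod-6, dod-17 and dod-19 stayed within 10 percent of N2, and dod-21 had no count. Of the 7 genes, 6 passed the filter on low counts, 3 were called higher, 1 was called lower and 2 were not called, beside 17.4% of all genes called higher and 16.6% lower. The mutant libraries did not overlap the N2 libraries for 5 members, 3 higher and 2 lower, as for 64.9% of all genes in the fit, 33.8% higher and 31.1% lower. These shares of all genes are a background only. The choice of members used this comparison, so the members' values and calls are described and nothing is concluded from them. Summed over the 7 genes, the N2 libraries had 389 and 384 CPM and the mutant libraries 497 and 506. dod-23 and dod-24 alone went from 99.5 and 98.4 to 230 and 239 CPM, which is more than the whole increase. No annotated gene overlapped any of the 7 in the RefSeq annotation of the WBcel235 assembly.

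**Figure D1:**
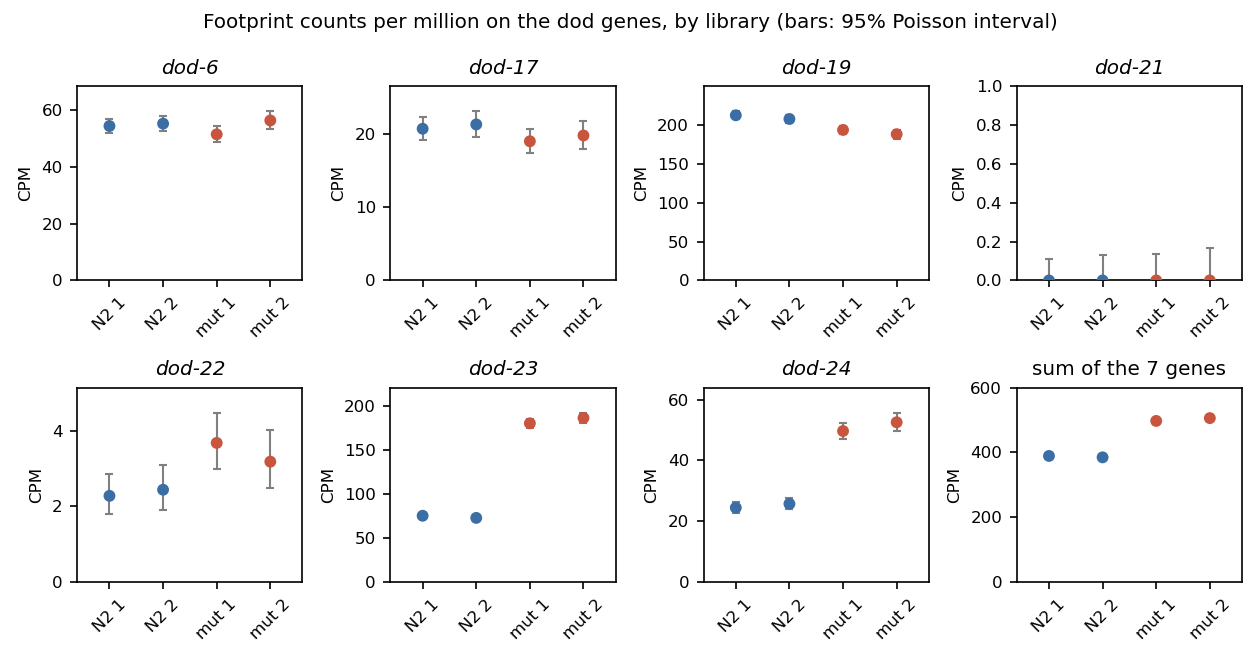
Footprint CPM of each of the 7 dod genes (vertical axes, linear, from 0) in the 2 N2 libraries (blue) and the 2 mutant libraries (red), with exact Poisson 95% intervals as bars; the last panel sums the 7 genes, without bars. dod-23 and dod-24 stand clear of N2 in both mutant libraries, dod-6 overlaps, and dod-21 is at 0 throughout.

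dod-6, of the class activated by DAF-16, was the member whose groups overlapped. Its level was 54.2 and 55.1 CPM in N2, against 51.3 and 56.2 CPM in the mutant. Both N2 values lay between the mutant values, and the log2 fold change was -0.03 (SE 0.052), with a sign that turned under upper-quartile factors (0.017) and without mutant replicate 1 (0.042). With scaling on somatic markers dod-6 was at -0.27 and was called lower. dod-3, the other dod gene of its class in the table and outside the 7 genes, had 13 and 6 counts in N2 against 15 and 7 counts for the mutant, too few for a direction to be read.

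Of the class repressed when DAF-16 is active, dod-23 was the gene with the largest difference. dod-23 (WBGene00009898) had 75.1 and 72.7 CPM in N2 and 180 and 186 CPM in the mutant, from 2475, 2028, 4899 and 4156 counts. Both mutant libraries lay far above both N2 libraries, and the libraries of a group differed by a factor of only 1.03 in each group. Its log2 fold change was 1.31 (SE 0.042), and any mutant library stood 2.40 to 2.56 times above any N2 library. Among the 13086 genes in the fit, 115 had a larger log2 fold change, or 0.879%. The members were chosen with this comparison known, so this rank and that of dod-24 below are descriptions only.

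dod-24 (WBGene00007875), which encodes a CUB-like protein, showed the next largest difference. It had 24.4 and 25.7 CPM in N2 and 49.6 and 52.5 CPM in the mutant, from 805, 717, 1351 and 1173 counts. Again the groups were well apart, with between-group ratios of 1.93 to 2.15 and replicate ratios of 1.05 and 1.06. The log2 fold change was 1.03 (SE 0.059), and 264 genes, or 2.02% of those in the fit, had a larger one. dod-24 kept pace with dod-23 only roughly: per 100 footprints on dod-23 there were 32.5 and 35.4 on dod-24 in N2 and 27.6 and 28.2 in the mutant.

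dod-22, a CUB-like gene of the same chromosomal neighbourhood, was read from few counts. Its counts were 75 and 68 in N2, against 100 and 71 in the mutant, or 2.28 and 2.44 against 3.67 and 3.18 CPM. The groups did not overlap, but the Poisson 95% interval of mutant library 2 (2.48 to 4.01 CPM) overlapped those of both N2 libraries, which reached 2.85 and 3.09 CPM. The log2 fold change of 0.55 (SE 0.174) was called in the fit of all genes, but not without N2 replicate 1 (0.49), without mutant replicate 1 (0.44), by DESeq2 (0.53) or with scaling on somatic markers (0.31).

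dod-19 was slightly lower in the mutant. It had 212 and 207 CPM in N2 and 193 and 188 CPM in the mutant, and the groups did not overlap. The ratio was 0.909 and the log2 fold change -0.14 (SE 0.037), which was called, although not without mutant replicate 2 (-0.13) or with limma on the deposited log2 values (-0.14). Because dod-23 rose while dod-19 did not, the makeup of the set changed: dod-19 held 54.6% and 53.9% of the counts on the 7 genes in N2 and 38.9% and 37.2% in the mutant, and dod-23 went from 19.3% and 18.9% to 36.2% and 36.8%. Per 100 footprints on dod-19 there were 35.4 and 35.1 on dod-23 in N2 and 93.1 and 99.1 in the mutant.

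dod-17, also CUB-like, had 20.7 and 21.2 CPM in N2 and 18.96 and 19.75 CPM in the mutant. The mutant values were both below the N2 values, and the log2 fold change of -0.12 (SE 0.072) was not called. With scaling on somatic markers dod-17 was at -0.36 and was called lower. Between-group ratios ran from 0.892 to 0.956. Per 100 footprints on dod-17 there were 118 and 121 on dod-24 in N2 and 262 and 266 in the mutant.

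dod-21 (WBGene00007873), which lies 1 gene away from dod-24, had no count in any library. A count of 0 allows up to 3 counts, or 0.091 to 0.134 CPM across the 4 libraries, for counting error only; the 2-sided Poisson intervals drawn in the plot of the members reach 0.112 to 0.165 CPM. How the authors assigned reads that match more than 1 gene is not given in the sources used here, and how alike dod-21 and dod-24 are in sequence was not examined. The other dod genes of this class outside the 7 were also low. dod-18 had 4.25 and 3.80 CPM in N2 and 3.09 and 3.36 in the mutant, with a log2 fold change of -0.33 (SE 0.158) that was not called (adjusted p = 0.0986; -0.57 and called with scaling on somatic markers). dod-20 had 3, 1, 2 and 1 counts.

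dod-21, dod-24, dod-22 and dod-17 follow each other within a stretch of 13 protein-coding genes. The 9 genes between them that are not dod genes include CUB-like relatives, and 8 of these were in the table. Only 3 had enough counts for the fit, and 2 of those were called, both higher, beside 17.4% of all genes called higher. F55G11.8, next to dod-22, had counts of 113 and 100 in N2, against 202 and 148 in the mutant, and rose from 3.51 ± 0.11 CPM to 7.02 ± 0.56 CPM, a log2 difference of 1.01 with SE 0.134 (adjusted p = 3.38e-09). F55G11.2, on the other side of dod-22, rose from 14.3 ± 0.92 CPM to 18.7 ± 0.44 CPM, a log2 difference of 0.38 with SE 0.078 (adjusted p = 5.4e-05), although this call was lost when scaled on somatic markers (0.14). mbug-1 (F55G11.4), between F55G11.2 and dod-17, had 23.5 ± 1.46 and 22.9 ± 1.31 CPM and was not called (-0.28 and called with scaling on somatic markers). It was named after its values were seen. The stretch therefore held large differences at dod-24 and F55G11.8 and small ones near dod-17. F55G11.6 and F55G11.10 had no counts, and dct-19, F55G11.1 and F55G11.7 had at most 14 counts in a library.

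**Figure D2:**
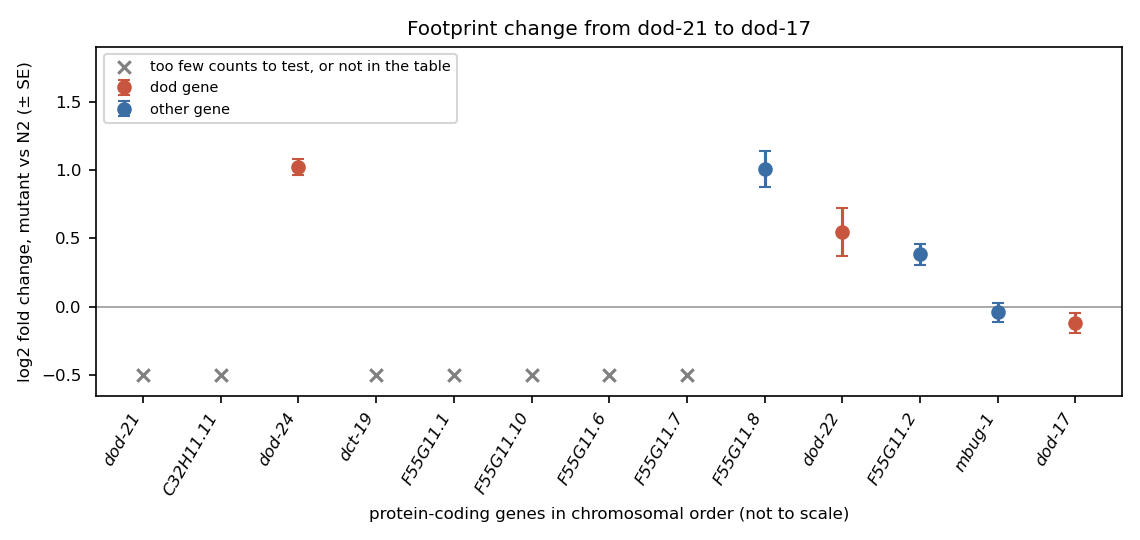
Log2 fold change of footprints (mutant against N2, points with SE bars; 2 libraries per group) for the 13 protein-coding genes from dod-21 to dod-17, in chromosomal order on the horizontal axis with no distances; dod genes are red and other genes blue. Crosses, set at an arbitrary height, mark genes with too few counts or not in the table; values go from 1.03 at dod-24 to -0.12 at dod-17.

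Over the 5 protein-coding neighbours on either side of each member, 48 genes that are not members were matched. As background for their calls, 17.4% of all genes in the fit were called higher and 16.6% lower. Of the 24 with enough counts, 4 were called higher and 2 lower (1 lower without N2 replicate 2, by DESeq2 or with upper-quartile factors; 0 lower with limma on the deposited log2 values; 2 higher and 8 lower with scaling on somatic markers), and their median log2 fold change was 0.04, against 0.01 over all genes in the fit. The largest difference beside dod-23 was at ubc-24, a ubiquitin-conjugating enzyme gene, which rose by 0.81 (SE 0.171, adjusted p = 8.23e-05) from 2.23 ± 0.19 to 3.90 ± 0.26 CPM. ubc-24 and skpo-1 were chosen after their values were seen. The gene next to dod-23, the peroxidase gene skpo-1, was slightly lower (-0.13, SE 0.040, adjusted p = 0.00684), but not called without N2 replicate 2 or mutant replicate 1 (-0.10 in both), by DESeq2 (-0.14), with upper-quartile factors (-0.087) or with limma on the deposited log2 values (-0.13). irg-8, the neighbour of dod-19, had 386 ± 5.22 and 389 ± 0.93 CPM (0.01, SE 0.036, adjusted p = 0.901), and chc-1, the clathrin heavy chain gene near dod-6, fell by 0.19 (SE 0.047, adjusted p = 7.93e-04) but was not called with limma on the deposited log2 values (-0.19).

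Genes listed for the insulin pathway changed in both directions, at shares near those of all genes in the fit (17.4% called higher, 16.6% lower). The list holds cofactors and insulin-like peptides as well as the core of the pathway. Of 25 such genes, 5 were called higher, 4 lower and 16 were not called, with a median of -0.002 (0 higher and 11 lower with scaling on somatic markers, 1 higher and 3 lower by DESeq2, 1 higher and 2 lower with limma on the deposited log2 values, 3 higher without mutant replicate 1, and 2 lower without mutant replicate 2). aap-1, the adaptor subunit of the AGE-1 kinase, was among the genes called lower, though not the lowest of them, and fell by 0.51 (SE 0.083, adjusted p = 4.95e-07). daf-2 and daf-16 themselves, chosen after their values were seen, rose by 0.27 (SE 0.079, adjusted p = 0.00408) and 0.21 (SE 0.050, adjusted p = 7.02e-04). Scaling on somatic markers put daf-2 at 0.035 and daf-16 at -0.032, and neither was then called; both also lost the call with limma on the deposited log2 values (0.27 and 0.21), and daf-2 without mutant replicate 1 (0.19) and by DESeq2 (0.26). The 14-3-3 genes par-5 and ftt-2, whose proteins hold DAF-16 in the cytoplasm, had log2 fold changes of -0.12 and -0.01 that were not called (adjusted p = 0.0982 and 0.909), but with the replicate number as a block par-5 was called lower (-0.12, adjusted p = 0.0199). It was also called without N2 replicate 1 (-0.13), with limma-voom and DESeq2 (both -0.12), and with scaling on somatic markers (-0.35), under which ftt-2 was called lower too (-0.25).

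Genes known to be activated by DAF-16 did not share a direction either. Their calls stand beside 17.4% of all genes called higher and 16.6% lower. Of 17 listed, 12 had enough counts, of which 2 were called higher and 4 lower, with a median of 0.17 (1 higher and 2 lower with limma on the deposited log2 values, 1 higher with scaling on somatic markers). The median includes genes of few counts that were not called: mtl-1 (0.98), dod-3 (0.50), hsp-12.3 (0.34), nnt-1 (0.29) and hsp-12.6 (-0.29). Their N2 means ran from 0.30 to 1.44 CPM, and they were named after their values were seen. sod-3, a superoxide dismutase gene widely used as a readout of DAF-16 and chosen here after its values were seen, fell from 5.12 ± 0.25 CPM to 2.79 ± 0.21 CPM, a log2 difference of -0.87 with SE 0.153 (adjusted p = 3.42e-06). The small heat shock protein gene sip-1 fell by 0.74 (SE 0.048, adjusted p = 5.12e-22). The lysozyme genes lys-7 and lys-8 rose by 0.60 (SE 0.050, adjusted p = 4.68e-17) and 0.21 (SE 0.036, adjusted p = 1.35e-06), but lys-8 was not called with scaling on somatic markers (-0.022) or with limma on the deposited log2 values (0.22).

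Of 25 CUB-like and other infection-response genes, a list that shares 11 genes with the neighbours above, 19 had enough counts. Of these, 6 were called higher and 2 lower (4 and 6 with scaling on somatic markers), beside 17.4% and 16.6% of all genes. The median was 0.11. lys-2, a lysozyme gene, rose from 52.4 ± 1.84 CPM to 96.3 ± 2.44 CPM, a log2 difference of 0.87 with SE 0.048 (adjusted p = 3.08e-26), and the C-type lectin gene clec-67 from 11.99 ± 1.71 to 23.4 ± 1.31 CPM (0.95, SE 0.081, adjusted p = 2.05e-15). irg-4, a CUB-like gene chosen after its values were seen, fell by 0.56 (SE 0.069, adjusted p = 2.31e-10), and C17H12.8 by 0.11 (SE 0.041, adjusted p = 0.0333). The C17H12.8 call was lost under 7 of 12 alternatives, among them without N2 replicate 2, mutant replicate 1 or mutant replicate 2 (-0.10, -0.10 and -0.12), so that 1 gene of the list was then called lower. Of 10 genes of the p38 kinase pathway and related intestinal immune regulators, 7 were called higher and none lower, beside 17.4% and 16.6% of all genes. The median was 0.26. With scaling on somatic markers, however, 1 was called higher and 2 lower, and DESeq2 and limma on the deposited log2 values each called 2 higher. The bZIP factor gene zip-2 rose by 0.54 (SE 0.055, adjusted p = 3.75e-13) and the phosphatase gene vhp-1 by 0.41 (SE 0.081, adjusted p = 2.3e-05), and hlh-30 by 0.19 (SE 0.059, adjusted p = 0.00701), but with scaling on somatic markers vhp-1 (0.18) and hlh-30 (-0.045) were not called. hlh-30 was also not called without mutant replicate 1 (0.17), by DESeq2 (0.18) or with limma on the deposited log2 values (0.19).

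**Figure D3:**
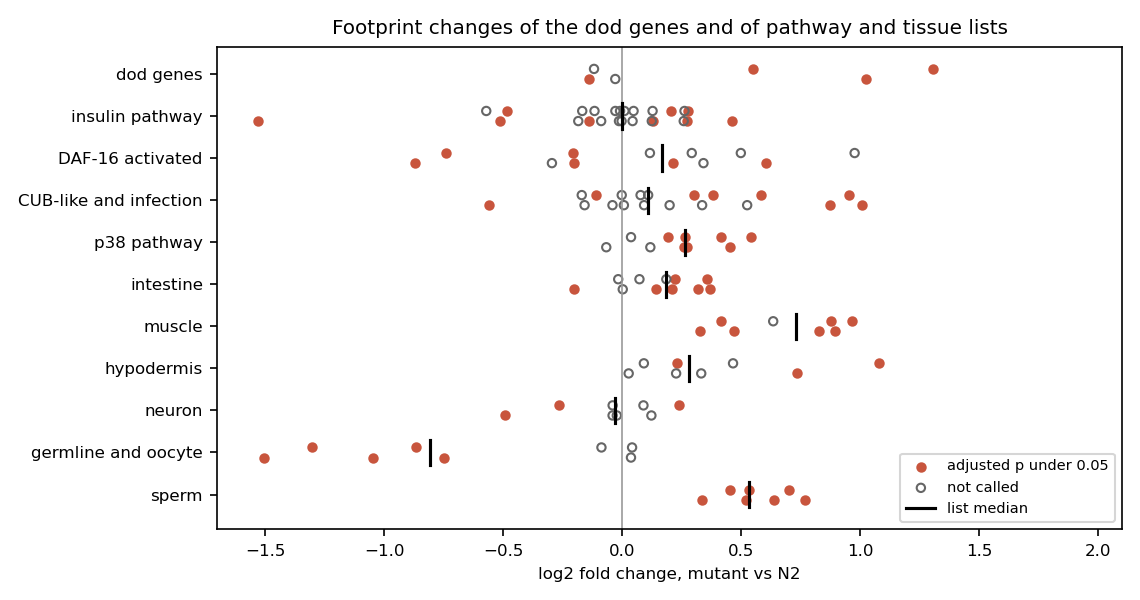
Log2 fold change of footprints (mutant against N2, horizontal axis) for each gene with enough counts, in rows for the 6 dod genes, 4 pathway lists and 6 tissue marker lists; filled points were called at an adjusted p under 0.05 and open points were not, and black bars are list medians. The dod genes run from -0.14 to 1.31, the highest list median is that of muscle at 0.73, and the lowest that of germline and oocyte markers at -0.81.

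Tissue markers moved between the groups. In whole worms, changes in the number of cells of a type, in RNA per cell and in ribosome occupancy cannot be told apart. Of 11 intestine markers in the table, 6 were called higher and 1 lower, with a median of 0.19 (1 higher and 3 lower with scaling on somatic markers, 2 and 0 with limma on the deposited log2 values), and none was at 0. Their summed level was 8542 to 8588 CPM in N2 and 9562 to 9595 in the mutant. Among the other lists, none of whose markers in the table was at 0, 7 of 8 muscle and 7 of 7 sperm markers were called higher, and 5 of 8 germline and oocyte markers lower (8 with scaling on somatic markers). Of 8 hypodermis markers 3 were called higher (1 with limma on the deposited log2 values), and of 8 neuron markers 1 was called higher and 2 lower, the higher call being lost without N2 replicate 1 or mutant replicate 2, by DESeq2, with limma on the deposited log2 values and with scaling on somatic markers. The summed level of the muscle markers was 12338 and 13017 CPM in N2 and 23103 and 23220 in the mutant. Sperm markers summed to 655 and 668 CPM in N2 and 954 and 980 in the mutant, and those of germline and oocytes to 4160 and 4200 against 2538 and 2570. Hypodermis markers summed to 4772 and 5077 CPM in N2 and 5002 and 5078 in the mutant, and neuron markers to 151 and 163 against 133 and 137. The calls of the tissue lists stand beside 17.4% of all genes called higher and 16.6% lower. The part of these tissues in the values of the dod genes was not tested. Of the intestine markers, ges-1, an esterase gene, rose by 0.37 (SE 0.062, adjusted p = 1.13e-06), the filament gene ifc-2 by 0.36 (SE 0.039, adjusted p = 3.87e-12) and the protease gene asp-1 by 0.21 (SE 0.055, adjusted p = 0.00146). asp-1 was not called when scaled on somatic markers (-0.026), with limma on the deposited log2 values (0.21), without mutant replicate 1 (0.21) or without mutant replicate 2 (0.21), and ges-1 was not called when scaled on somatic markers (0.13). The actin gene act-5 was not called (0.07, adjusted p = 0.319).

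Relative to the intestine list, dod-23 and dod-24 were higher in the mutant, as was dod-22 on its few counts (ratio 1.30, or 1.41 without asp-1). The part of the intestine in these values was not tested. Per 100 footprints on the list there were 0.879 and 0.846 on dod-23 in N2 and 1.88 and 1.95 in the mutant, a ratio of 2.22. For dod-24 there were 0.286 and 0.299 in N2 and 0.517 and 0.549 in the mutant, a ratio of 1.82. dod-19 went from 2.48 and 2.41 to 2.01 and 1.96, and dod-6 from 0.635 and 0.641 to 0.535 and 0.588. asp-1 held 68.2% to 71.6% of the list's counts, and without it the ratios were 2.41 for dod-23 and 1.98 for dod-24, an alternative chosen after seeing the data. Leaving asp-1 out also moved the ratio of dod-6 from 0.880 to 0.957, of dod-17 from 0.826 to 0.899 and of dod-19 from 0.812 to 0.885. The lower values of these 3 genes thus depended in part on asp-1.

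**Figure D4:**
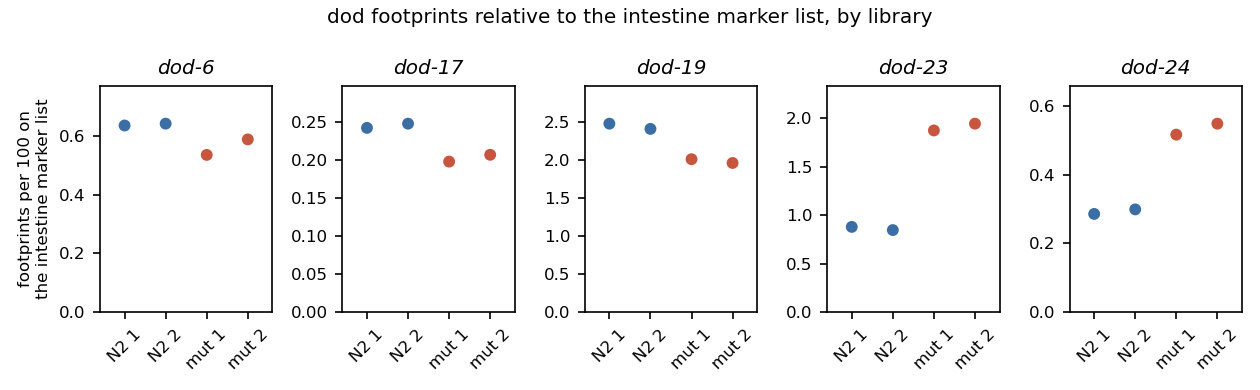
Footprints on 5 dod genes per 100 footprints on the intestine marker list (vertical axes, linear, from 0) in the 2 N2 libraries (blue) and the 2 mutant libraries (red). On this scale, with asp-1 in the list, dod-23 and dod-24 are higher in both mutant libraries, and dod-6, dod-17 and dod-19 are lower in both.

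The genes with profiles most like dod-23 over the 4 libraries were found by the distance between log2 CPM values centred per gene, among 7877 genes with a mean of at least 5 CPM. They were C31H1.1 (distance 0.063), catp-3, a P-type ATPase gene (0.071), and Y54E2A.9 (0.075), and 5 genes in all lay within 0.1. catp-3 had 17.7 and 17.99 CPM in N2 and 42.6 and 45.1 in the mutant. For dod-19, the member with the most counts, the nearest were F57C2.4 (0.0081), C14C10.5 (0.010) and ech-2 (0.011), and 1377 genes lay within 0.1. Among the members themselves, dod-23 and dod-24 were 0.311 apart, dod-17 and dod-19 were 0.090 apart, and dod-19 and dod-23 were 1.44 apart.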

How the data were processed

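The data were 4 ribosome profiling libraries (2 N2, 2 cey-1 cey-4). The authors deposited whole-number counts per gene, and Bowtie is named in the submitters' processing notes. The genome build, annotation, counting rule and filters were not given in the sources used here. A second deposited table held log2 values, which equalled, within 5e-04, the log2 of counts brought to the lowest library total with 8 added. Of 20182 features, 3 that repeat genes were left out, and 18778 had a symbol in the reference name table.

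Counts were fitted in R 4.3.3 with edgeR 4.0.16 (TMM, filterByExpr with a minimum count of 10, robust glmQLFit, glmQLFTest, 2-sided, genotype only), and the fit was tested on simulated data. The SE is the log2 fold change divided by the square root of F. Alternatives used DESeq2 1.42.0, limma 3.58.1 and other filters and scalings, among them TMM over markers of intestine, muscle, hypodermis and neurons. Within groups, counts of the libraries differed beyond sampling noise (chi-square divided by its degrees of freedom was 24.6 in N2 and 8.38 in the mutant), so no library appears a second time. Poisson 95% intervals and the floor of 3 counts cover counting error only, since reads without molecular identifiers are not independent molecules.

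The members and lists were chosen with earlier results of these data known. Named genes were the members, other dod genes, up to 4 genes of each pathway, intestine and neighbour list (2 by lowest p, 2 by highest mean CPM), and 3 genes nearest in profile to dod-23 and dod-19. A gene of the insulin pathway list that this rule names is counted with its list and not reported here. Other tissue lists are given by counts. RefSeq's WBcel235 table served for names and gene order only.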

Additional observations from a re-analysis of the deposited data

How the results depend on the processing

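dod-23 and dod-24 had log2 fold changes of 1.07 to 1.35 and 0.79 to 1.07 across the 12 alternatives. Scaling on somatic markers moved the median of all genes by -0.24, and the values of dod-23 and dod-24 by about as much. Its marker set includes muscle, with a median of 0.73 in the main fit. Under it dod-6 (-0.27) and dod-17 (-0.36) were called lower, so 3 members were called lower, and dod-22 (0.31) was not called. Reversed under the same scaling were irg-8 (-0.23), act-5 (-0.17), asp-1 (-0.026), daf-16 (-0.032), hlh-30 (-0.045) and lys-8 (-0.022), while zip-2 (0.30), lys-7 (0.37), ifc-2 (0.12), skpo-1 (-0.37) and chc-1 (-0.43) were called in both. dod-6 was at 0.017, ftt-2 at 0.037 and mbug-1 at 0.0051 under upper-quartile factors. irg-8 was at -0.0011 with DESeq2 and -1.8e-04 with no filter, and ftt-2 at 0.0017 with at least 50 counts in 2 libraries. dod-22 was not called by DESeq2 (0.53), nor dod-19 with limma on the deposited log2 values (-0.14), where 0 members were called lower.

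All genes called numbered 4455 in the main fit, 2178 (1007 higher, 1171 lower) with DESeq2, 1649 (1049 and 600) with limma on the deposited values, and 6416 (801 and 5615) with scaling on somatic markers; 62 genes of the lists were called in the main fit and 34 with limma on deposited values. Fits without a given library, in which the single library left in its group is assumed to vary like the other group, gave 3172 to 3885 calls, 0 to 1 members called lower, and log2 fold changes of -0.10 to 0.042 for dod-6, -0.16 to -0.13 for dod-19, 0.44 to 0.64 for dod-22, -0.0099 to 0.021 for irg-8, -0.045 to 0.024 for ftt-2 and -0.10 to 0.024 for mbug-1. For dod-22, dod-19 and the other reversals, the cause was not tested. The replicate block gave 4782 calls and the same 4 members called, 3 higher and 1 lower, and among the other named genes par-5 gained a call. The labels do not say that a number marks a shared culture or day, and the deviations of same-numbered libraries correlated at 0.13. Levels per coding length and promoter motifs, planned as comparisons, were not run, since lengths and sequences were not used here.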
